A study of Mus musculus with 5 samples.

Results

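Arg1-positive macrophages of the mouse kidney were examined in single-cell RNA-seq data from sham surgery and from unilateral ischemia-reperfusion (UIR), the clamping and release of 1 renal pedicle. The members were barcodes with at least 500 UMIs (unique molecular identifiers, each standing for 1 captured transcript), at least 200 genes and at most 25% mitochondrial UMIs. They also had at least 1 UMI of Arg1, at least 5 of Lyz2, at most 1 each of Gpnmb, Ly6c2 and Lrp2, and S100a8 and S100a9 together below 1% of their UMIs. Of 79202 barcodes that passed the limits on UMIs, genes and mitochondrial share, 129 were members, or 0.163%. Arg1 was at or above 1 UMI in 295 of those barcodes, 208 of which also had the Lyz2 minimum, and the limits on Gpnmb, Ly6c2 and Lrp2 then left 153, 147 and 129. The limit on S100a8 and S100a9 removed no more barcodes. Members were thus chosen by their own UMIs of Arg1, Lyz2, Gpnmb, Ly6c2, Lrp2, S100a8 and S100a9, so the levels of these genes are descriptions and carry no test.

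The kidneys came from male C57BL/6J mice that had sham surgery (Sham) or were sampled after UIR at AKI day 1, day 3, day 14 or day 28, with 1 sample for each, prepared from 3 mice without a label that tells their cells apart. The study's methods speak of more matrices than the libraries found here, and how these correspond could not be worked out. The deposited counts are 1 matrix of 5 numbered libraries, and the labels tie no library number to a condition, so the libraries are named by number and no condition is compared. All cells therefore count as 1 sample: no p-value is given, and every 95% interval covers counting error only. The labels give kidney as the tissue and Goblet cell as the cell type, whereas the member barcodes carried the macrophage genes described next.

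Arginase 1, the product of Arg1, splits arginine into ornithine and urea, drawing arginine away from nitric oxide synthesis and feeding polyamine and proline synthesis. In mice it is widely used to mark alternatively activated and wound-repair macrophages. After ischemic injury, Ly6c2-high monocytes enter the kidney through the chemokine receptor CCR2 and mature into macrophages, which sit beside the macrophages that lived in the tissue before. Where a given barcode came from was not measured here.

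Macrophage markers were present in the members. Levels are given as CPM, the UMIs of a gene summed over a group and scaled to a common total. Cd68, a lysosomal glycoprotein gene of macrophages, was found in 88.4% of members (581 CPM), Itgam, an integrin gene of myeloid cells, in 82.9% (489.8 CPM), Csf1r, the growth factor receptor gene of the lineage, in 69.0% (290.3 CPM) and Adgre1, which encodes F4/80, in 32.6% (101 CPM). The tubule barcodes used as a reference held these genes in 1.57%, 0.295%, 7.98% and 0.130%. Timd4 and Lyve1, genes of some long-lived tissue macrophages, were at 0 UMIs in members. Most other resident-macrophage genes were present: of the 17 listed, 2 were at 0 in members. That list summed to 16146 CPM in members and 1961 CPM in the tubule reference. The 12 genes that led the members over all other kept barcodes were Pf4, Ccl7, Ccl2, Msr1, F13a1, Fn1, Ccl6, Ccl9, Ccl12, Itgam, Fcgr1 and Ms4a6d. Whether the cells had infiltrated cannot be read from these counts. Of the marker genes Pf4, Ccl7 and Ccl2 that come with the name, all were detected in 58 of 129 members (45.0%, exact binomial interval 36.2 to 54.0%), and none in 14 members (10.9%). The markers did not hold in every library. All were present in 53 of 95 members of library 3 (55.8%, 45.2 to 66.0%), in 4 of 18 of library 4 (22.2%) and in 0 of 14 of library 2, where 8 members (57.1%) had none. For library 2 the name therefore rests on Arg1 and Lyz2.

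Members were unevenly spread over the libraries. Libraries 1 to 5 held 2, 14, 95, 18 and 0 of them, so library 3 gave 73.6%. The comparison population is the set of Lyz2-positive barcodes without Arg1, which met every limit of the members except that Arg1 was at 0 UMIs. Among barcodes meeting the limits apart from Arg1, the share with Arg1 was 0.583% in library 1 (2 of 343, exact interval 0.0707 to 2.09%), 4.31% in library 2 (14 of 325, 2.37 to 7.12%), 20.2% in library 3 (95 of 470, 16.7 to 24.1%) and 12.9% in library 4 (18 of 140, 7.80 to 19.6%). Library 5 had 0 of 16 (exact interval up to 20.6%), and 3 counts of its 16 barcodes would be 18.8%. The interval of library 3 lay above those of libraries 1 and 2 and overlapped that of library 4. Median depth was 24496, 8568, 4731 and 5912 UMIs per member in libraries 1 to 4, and 3641, 3502, 3288 and 3959 UMIs per barcode without Arg1. The part of depth in these shares was not tested.

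**Figure D1:**
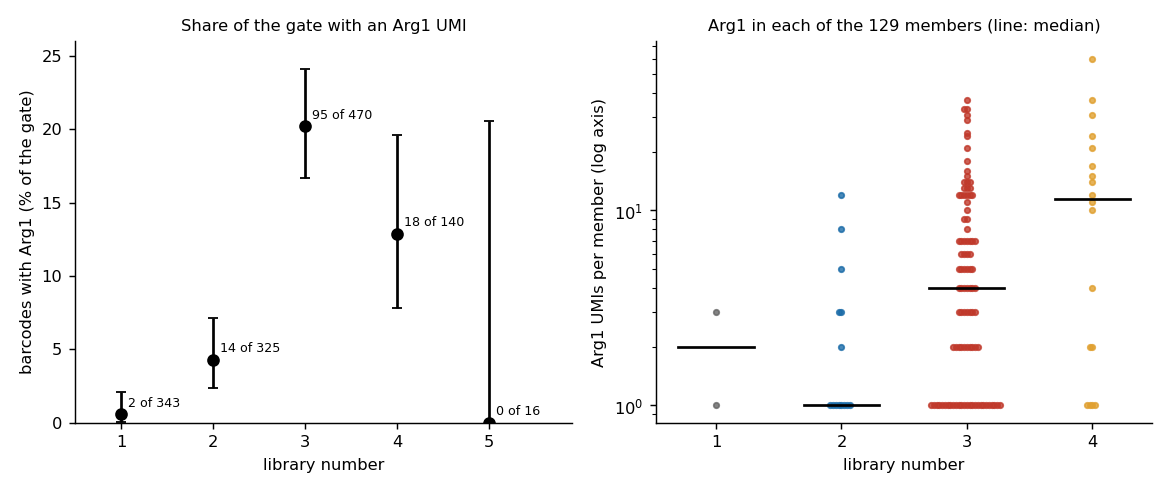
Left, percent of barcodes meeting the limits apart from Arg1 that held an Arg1 UMI, by library number, with exact 95% binomial intervals (counting error only). Right, Arg1 UMIs per member on a log axis, 1 point a member, with a line at the library's median. The share was highest in library 3 (20.2%) and members of library 4 had the highest median (11.5 UMIs).

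Arg1 was graded among members, from 1 to 60 UMIs with a median of 4. It was at 1 UMI in 39 members, at 2 to 9 in 53 and at 10 or more in 37, and the 10 highest members held 34.4% of the members' Arg1 UMIs. The medians were 2, 1, 4 and 11.5 UMIs in libraries 1 to 4. At a common depth of 1000 UMIs, 51.2% of members kept an Arg1 UMI, so absence of Arg1 at these depths does not show that a cell lacked the transcript. In the tubule reference, barcodes with at least 5 Lrp2 UMIs, at most 1 Lyz2 UMI and no Ptprc, 18 of 19303 barcodes (0.0932%) held Arg1, at 0.103 CPM, against 1282 CPM in members (exact Poisson interval 1203 to 1364). Members held 989 of the 2425 Arg1 UMIs of all kept barcodes (40.8%). Much of the rest was in Gpnmb-positive barcodes, which met the members' limits but with at least 2 Gpnmb UMIs and any Arg1: 48 of 115 (41.7%) had Arg1, at 647 CPM. Ly6c2-positive barcodes, defined likewise with at least 2 Ly6c2 UMIs, had Arg1 in 5 of 164 (3.05%), at 107 CPM. Median depths were 9989 UMIs in Gpnmb-positive barcodes, 3968 in Ly6c2-positive barcodes and 4998 in members. The part of depth in these shares was not tested.

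At the edges of the rule, 39 members had 1 Arg1 UMI and 1165 barcodes with 0 lay just outside. Members with exactly 1 UMI of Gpnmb, Ly6c2 or Lrp2 numbered 7, 10 and 29, and 5, 2 and 5 barcodes lay outside with exactly 2. With Lyz2, 2 members stood at 5 UMIs and 1 barcode at 4. Members with 1 Arg1 UMI held 3415 CPM of Pf4, 894 of Ccl7 and 1578 of Ccl2, and the barcodes without Arg1 held 516, 252 and 616. No barcode sequence was shared between members of different libraries, although 642 sequences were kept in more than 1 library and 3 member sequences recurred in another library. No doublet caller was run.

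Pf4, Ccl7 and Ccl2, which led the members over all other kept barcodes, encode chemokines. These are secreted proteins that draw in leukocytes: Ccl2, Ccl7 and Ccl12 act on CCR2, the receptor of inflammatory monocytes, and Pf4 and Ppbp are platelet-type CXC chemokines. In the GENCODE annotation of GRCm38, Ccl2 (chr11:82035571-82037453), Ccl7 (chr11:82045712-82047525) and Ccl12 (chr11:82101845-82103400) are neighbours, as are Ppbp (chr5:90768518-90770063), Pf4 (chr5:90772435-90773383) and Cxcl3 (chr5:90786103-90789600), whereas Arg1 lies at chr10:24915221-24927484 on the minus strand. The 250 bases before the start of Ccl12 and Pf4 are shown because both genes were highest in the members of library 3 with the most C1q, and those of H2-Aa and H2-Eb1 because these MHC class II genes were lower together in members. Sequences are from RefSeq on GRCm38.p6, written 5′ to 3′ on the gene's own strand, at chr11:82101595-82101844, chr5:90772185-90772434, chr17:34287824-34288073 (minus strand) and chr17:34305617-34305866. Capitals mark matches on either strand of TATAAA (the TATA box) or GATTGG (the inverted CCAAT box), and TGANTCA (the AP-1 sequence) was searched for too.
Ccl12: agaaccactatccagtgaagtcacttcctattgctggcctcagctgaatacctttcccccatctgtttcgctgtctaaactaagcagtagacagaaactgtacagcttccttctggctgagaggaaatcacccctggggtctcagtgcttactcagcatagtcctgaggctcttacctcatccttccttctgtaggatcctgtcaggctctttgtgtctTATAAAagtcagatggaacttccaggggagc
Pf4: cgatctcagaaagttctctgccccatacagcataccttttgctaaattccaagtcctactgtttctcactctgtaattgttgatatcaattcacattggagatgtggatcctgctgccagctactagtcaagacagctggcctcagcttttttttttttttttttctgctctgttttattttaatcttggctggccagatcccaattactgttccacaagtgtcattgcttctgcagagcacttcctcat
H2-Aa: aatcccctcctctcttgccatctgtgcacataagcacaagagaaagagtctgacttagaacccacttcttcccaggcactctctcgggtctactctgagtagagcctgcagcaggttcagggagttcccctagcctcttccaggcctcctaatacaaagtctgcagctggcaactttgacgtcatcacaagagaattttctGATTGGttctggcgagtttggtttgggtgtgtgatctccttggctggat
H2-Eb1: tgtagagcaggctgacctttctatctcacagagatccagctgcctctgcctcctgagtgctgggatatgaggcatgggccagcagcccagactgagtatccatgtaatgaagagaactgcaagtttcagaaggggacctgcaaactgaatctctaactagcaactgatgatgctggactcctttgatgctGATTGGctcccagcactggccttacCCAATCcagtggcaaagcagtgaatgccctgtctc
The Ccl12 window held TATAAA, starting 31 bases before the start site, a sequence found in 12.4% of the 32851 windows of the same length. Those of H2-Aa and H2-Eb1 held GATTGG or its reverse complement, found in 14.6% of windows, at 49 bases in H2-Aa and at 60 and 35 bases in H2-Eb1. TGANTCA, found in 6.75% of windows, was in none of these windows, and the Pf4 window held none of the motifs. These matches describe letters and not bound sites.

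Chemokine levels differed between libraries by more than their counting intervals. In members of libraries 2, 3 and 4, Pf4 was at 257, 4725 and 2350 CPM, and 2, 65 and 10 members held a Pf4 UMI. The low Pf4 of library 2 came mostly from 1 barcode, which held 74.2% of its Pf4 UMIs. Ccl7 was at 0 (upper bound 30.6), 2058 (1931 to 2190) and 868 CPM. Ccl2, the main monocyte attractant of this family, was at 49.8 (18.3 to 108), 3686 (3516 to 3862) and 2399 CPM. Ccl12 was at 8.3, 577 and 24.6 CPM. Libraries 3 and 4 were thus high for Pf4 and Ccl2, and library 3 for Ccl7 and Ccl12. In library 1, whose 2 members had 13 and 7 Pf4 UMIs, 1 of them held all 50 Ccl7 and all 18 Ccl2 UMIs. The 59.4% share of 1 barcode in the Ccl7 UMIs of library 4 shows how few barcodes set that value. Ccl2 and Ccl7 were also found in barcodes of 10 to 100 UMIs, which stand in for free RNA: Ccl7 there was at 430.4 CPM in library 3 and 948 CPM in library 4, Ccl2 at 384 and 900.2 CPM, and Pf4 at 31.7 and 12.6 CPM. Ccl7 of library 4's members, at 868 CPM, was therefore no higher than in those low-UMI barcodes, while it was at 0.236 CPM in that library's tubule reference. What part of the Ccl7 of library 4 is free RNA was not tested. By share of barcodes, Pf4 was detected in 61.2% of members, 23.6% of Lyz2-positive barcodes without Arg1 and 0.497% of the tubule reference, with median depths of 4998, 3421 and 7990.0 UMIs. Thinned to 1000 UMIs per barcode, the share was 53.5% of 129 members and 15.8% of 1062 barcodes without Arg1. Ccl2 was found in 79.8%, 30.3% and 0.679% of these groups unthinned.

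Among members of libraries 2, 3 and 4, those of library 2 held the most Mmp12, the macrophage elastase, and the most MHC class II RNA. Mmp12 was at 2831 CPM (2539 to 3149) in members of library 2, 0 (upper bound 7.68) in library 3 and 229 CPM (152 to 331) in library 4. It was found in 8 of 14, 0 of 95 and 2 of 18 members, and 1 barcode held 62.5% of the UMIs of library 2. H2-Aa, a chain of the antigen-presenting MHC class II molecule, was at 3305 (2988 to 3646), 208 (169 to 253) and 1179 CPM (994 to 1388) in that order, and Cd74, its invariant chain, at 8959, 1029 and 5069 CPM. Class II UMIs ran from 0 to 509 per member of library 2. The class II list summed to 20318, 1887 and 9179 CPM in members and to 39402, 9569 and 22143 CPM in barcodes without Arg1. This library order was thus not particular to members. The receptor gene Axl, which binds dying cells through GAS6, was at 349, 6.25 and 65.5 CPM, and the protease inhibitor gene Timp2 at 266, 12.5 and 16.4 CPM. Libraries 2 and 3 thus stood at the ends for all of these, with library 4 between them or, for Timp2, near library 3. The opposite order held for the monocyte genes Chil3 (0, 627 and 139 CPM) and F13a1 (16.6, 581 and 147 CPM). Hmox1, the heme-degrading enzyme gene, followed it too (116, 1258 and 663 CPM). The monocyte list summed to 573, 2545 and 721 CPM in members and to 1088, 4023 and 1936 CPM in barcodes without Arg1. That order was thus not particular to members either. Levels of Mmp12, Axl, Timp2 and Hmox1 by library outside the members are not given here, so their orders may not be particular to members. Fn1, the matrix protein fibronectin, was at 2724, 1729 and 901 CPM, detected in 13 of 14, 91 of 95 and 15 of 18 members. Its level in barcodes of 10 to 100 UMIs was 23.1, 356 and 811 CPM in these libraries, so that of library 4 was close to its members' level, and in the tubule reference it was at 3.91, 2.48 and 0.767 CPM. The part of free RNA in the Fn1 of library 4 was not tested. Ccl6 was at 2566, 3794 and 5740 CPM in members of these libraries, and Arg1 at 340.4, 1416 and 2162 CPM. Arg1 is a gene of the rule, so this shared order of libraries carries no test. Which condition a library came from is not given by the labels used here, so these differences cannot be told apart from a difference between libraries.

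**Figure D2:**
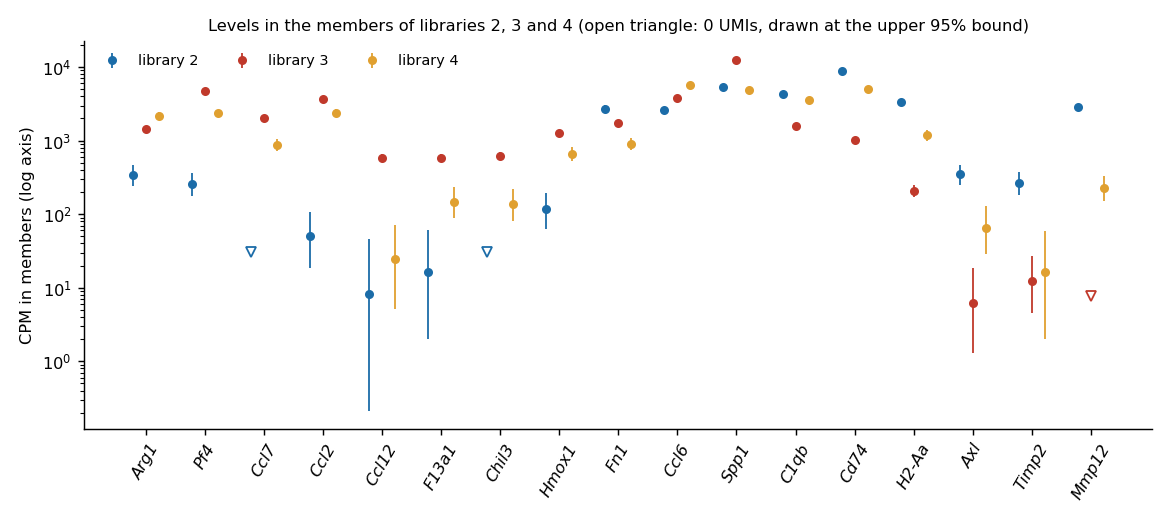
Levels of chosen genes in the members of libraries 2, 3 and 4 (14, 95 and 18 barcodes), in CPM on a log axis with exact 95% Poisson intervals, where an open triangle marks 0 UMIs at its upper bound. Pf4 and Ccl2 were high in libraries 3 and 4 and low in library 2, where Mmp12, H2-Aa and Axl were highest. Ccl7 was high in library 3 and at 0 in library 2, and 1 member held 63 of the 106 Ccl7 UMIs of library 4.

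The first comparison was with the 1165 Lyz2-positive barcodes without Arg1, which met the members' other limits. Their cell type was not set beyond these limits. Fibroblast markers were at 114 CPM in them and 1.30 CPM in members. A gene was counted when its pooled CPM differed at least 2-fold and the mean CPM of both groups was at least 10. Library 3, the one library with at least 20 barcodes in each group, also had to be on the same side. Of 7269 genes tested, 209 were higher in members (2.88%) and 512 lower (7.04%), and the median log2 ratio of all genes was 0.02. Inside library 3 alone, of 7230 genes, 309 (4.27%) were higher and 634 (8.77%) lower, and its median was -0.02. Without library 3 the counts were 505 and 884 of 7149 genes, over 34 members. With every barcode thinned to 1000 UMIs they were 982 and 909 of 7081. These held 70.3% of the genes counted higher and 44.5% of those counted lower, so the balance of the directions changed under thinning.

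Chemoattractants were higher in part. Over all libraries, Pf4 stood at 3378 CPM in members and 516 in barcodes without Arg1, a log2 ratio of 2.71 (2.63 to 2.79), and of 2.63 and 0.53 in libraries 3 and 4. In library 2 it was 0.40, but 1 member held 23 of the 31 Pf4 UMIs, so no side is read there. Ccl7, at 1482 against 252 CPM, had a log2 ratio of 2.56 (2.44 to 2.68), with 2.64 in library 3 and 1.46 in library 4. In library 4, 1 member held 63 of the 106 Ccl7 UMIs, so no side is read there. Ccl2, at 2704 against 616 CPM, had 2.14, with -3.13, 1.62 and 1.70 by library. In library 2 both were lower in members, at 0 against 151 CPM for Ccl7 and 49.8 against 436 CPM for Ccl2. Among 11 CC chemokines tested 5 were counted higher and 4 lower, with a median log2 ratio of 0.67, and among 9 CXC chemokines 4 were higher and 2 lower, with a median of 0.83. Within library 3 the CC chemokines gave 6 higher and 1 lower of 10 (median 1.38), and the CXC chemokines 5 higher and 0 lower of 8 (median 1.15). In libraries 2 and 4 the CC medians were -2.32 and 0.53 and the CXC medians 0.39 and 0.64, where genes at 0 UMIs in 1 group were set to 3 counts, so the side of the CC list depended on the library. Ccl6, a chemoattractant of monocytes, was at 3757 against 943 CPM (log2 ratio 1.99), and 1.83, 1.45 and 2.02 in libraries 2, 3 and 4, so it was higher in members in each. Ppbp, at 127 against 2.60 CPM, had a log2 ratio of 5.61, which rests on 97 UMIs in 19 barcodes of library 3. Cxcl3, a neutrophil attractant, was at 178 against 10.2 CPM (4.12), and at 291, 202 and 24.6 CPM in members of libraries 2, 3 and 4 against 8.32, 19.6 and 14.6 CPM. The value of library 4 rests on 3 UMIs (interval 5.07 to 71.8 CPM), which do not set it apart.

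Fn1, Msr1 and Itgam were higher in members in each of libraries 2, 3 and 4, and Fabp5 in libraries 2 and 3. Fn1 was at 1672 CPM in members and 299 in barcodes without Arg1 (log2 ratio 2.48; 3.24, 1.86 and 1.79 by library). Msr1, the scavenger receptor A, was at 382 against 96.5 CPM (1.99; 1.71, 1.06 and 1.91), and Itgam at 489.8 against 174 CPM (1.49; 1.63, 0.90 and 0.93). Fabp5, a fatty-acid-binding protein, was at 1229.7 against 293 CPM (2.07; 2.39, 1.68 and 0.30), and in library 4 its 598 CPM in members (469 to 752) did not differ beyond counting error from 485 CPM. In the lipid-handling list, 6 of 17 tested genes were higher and 0 lower with a median of 0.63, and within library 3 the count was 8 and the median 0.95. Its medians were 0.42 and 0.70 in libraries 2 and 4. Of 15 growth factor and matrix genes 5 were higher and 2 lower (median 0.48), and within library 3 alone 2 of 14 were higher and 4 lower. Their medians were 0.63, 0.31 and 0.76 in libraries 2, 3 and 4. Spp1, osteopontin, was at 9827 against 4249 CPM, but the tubule reference of library 3 held 10972 CPM of it against 12548 CPM in that library's members, so its level in members lay close to that of tubule barcodes there.

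Glycolysis and hypoxia genes were higher as a group, by less inside library 3. Of 22 tested, 13 were counted higher and 0 lower (median log2 ratio 1.12). Within library 3 alone 3 of 22 were at 2-fold and the median was 0.67, and the medians were 0.78 in library 2 and 1.37 in library 4. The enzyme genes Eno1 and Pkm had log2 ratios of 1.47 and 1.28 over all libraries, and 0.77 and 0.95 within library 3. Pgam1, another enzyme of the pathway, gave 1.27 and 0.82, and Hif1a, the oxygen-regulated transcription factor gene, 1.21 and 0.42. Pfkl, an early enzyme of glycolysis, stayed beyond 2-fold at 1.61 and 1.52. Library 3 held 95 of 129 members and 375 of 1165 barcodes without Arg1, and the list median was above 0 in each of libraries 2, 3 and 4.

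MHC class II genes were lower in members in each of those libraries. H2-Aa was at 850 CPM in members and 6442 in barcodes without Arg1 (log2 ratio -2.92; -1.06, -2.93 and -1.61 in libraries 2, 3 and 4). Cd74 was at 2993 against 17803 CPM (-2.57; -0.98, -2.17 and -1.08). H2-Ab1 and H2-Eb1, further class II chains, gave -2.72 and -2.81. Of 10 tested genes of the list 7 were lower and 0 higher, with a median of -2.16, and the medians by library were -0.94, -2.29 and -1.29. By share of barcodes, H2-Aa was found in 28.7% of members and 69.4% of barcodes without Arg1 (20.9% and 64.8% at 1000 UMIs), and in 8.59% of the tubule reference. The barcodes without Arg1 also held dendritic cell markers at 117 CPM, with 3 or more such UMIs in 54 barcodes (4.64%), and B cell markers at 112 CPM, with as many UMIs in 54 barcodes, while the members held 6 and 9 UMIs of those lists in all. Without barcodes that had 3 or more dendritic marker UMIs, the class II median was -2.13. Without barcodes that had 3 or more marker UMIs of B cells or of T and NK cells, endothelium, fibroblasts, neutrophils or distal tubule, it was -2.16. Both filters on the list medians were chosen after the data were seen. Dendritic markers had a median of 0 UMIs per barcode without Arg1, so that filter can miss dendritic cells. Their part in the class II difference was not tested. Interleukin 1 beta, a pro-inflammatory cytokine, was lower too, with Il1b at 1380 against 2956 CPM (-1.10). In libraries 2, 3 and 4 it was at 2499, 927 and 1384 CPM in members and 2930.2, 2102 and 1399.6 CPM in barcodes without Arg1. Among these libraries the difference was thus mostly in library 3. Library 1 held 341 of the barcodes without Arg1 but only 2 members, and its part in the pooled ratio was not tested.

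Monocyte genes had 2 of 11 higher and 4 lower (median -0.30) over all libraries. Within library 3 alone 1 of 12 was higher and 7 were lower (median -1.40), and the medians of libraries 2 and 4 were -0.74 and -0.84, so the list median was below 0 in each. Interferon-response genes had 0 of 11 higher and 4 lower (median -1.11) over all libraries, but 3 higher and 0 lower with a median of 0.02 within library 3, and medians of -1.45 and -1.25 in libraries 2 and 4. Of 9 alternative-activation genes, 1 was higher and 2 lower (median 0.56), with 5 of 8 higher within library 3 (median 1.07) but medians of -0.78 and -0.40 in libraries 2 and 4. Mrc1, the mannose receptor gene, was at 179 against 162 CPM, and Retnla at 0 against 109 CPM. In the arginine and polyamine list 1 of 11 genes was higher and 0 lower, and within library 3 alone 0 of 10 were higher or lower (median 0.04). Over all libraries Srm, spermidine synthase, had a log2 ratio of 1.17, Arg2 was at 9.07 CPM in members, and Nos2, which makes nitric oxide from arginine, was at 0. Resident-macrophage genes had 2 of 15 higher and 2 lower (median -0.54), and the medians of libraries 2, 3 and 4 were -0.04, 0.49 and -0.49, so the side depended on the library. Of 12 phagocytic receptor genes 2 were higher and 0 lower, with medians of 0.46, 0.59 and -0.05 in libraries 2, 3 and 4, and of 14 iron and stress genes 2 were higher and 0 lower. Of 21 transcription factor genes 2 were higher and 3 lower, of 13 cytokine genes 0 and 3, and of 9 chemoattractant receptor genes 0 and 0.

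Against Ly6c2-positive barcodes (164 barcodes, of which 106 in library 3), 653 of 7126 genes tested were higher in members (9.16%) and 734 lower (10.3%), with a median log2 ratio of -0.04. Inside library 3 alone, of 7052 genes, 814 (11.5%) were higher and 816 (11.6%) lower. Without library 3 the counts were 1030 and 1325 of 6790 genes. Classical monocyte genes were lower in members. Of 12 monocyte genes 0 were higher and 10 lower, with a median of -1.99. The comparison barcodes were picked by Ly6c2, so genes that rise or fall with it describe that choice and carry no test. Plac8, Hp (haptoglobin) and Ifitm6 gave -3.95, -4.17 and -3.96. Plac8 was at 0, 277 and 57.3 CPM in members of libraries 2, 3 and 4 and at 3521, 2386 and 4301 CPM in Ly6c2-positive barcodes, so its summed level was lower in members in each. F13a1, a coagulation factor gene of monocytes, was less different, at 394 against 641 CPM (-0.70).

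In the other direction, 9 of 14 resident-macrophage genes were higher and 0 lower (median 1.72), and 13 of 17 lipid-handling genes were higher and 0 lower (median 1.62). C1qb was at 2467 CPM in members and 113 in Ly6c2-positive barcodes. By library it was at 4276, 1581 and 3619 against 33.3, 119 and 224 CPM, so its summed level was higher in members in each. Single barcodes varied, and 38 of the 95 members of library 3 had no C1q UMI. Fabp5 was at 1229.7 against 123 CPM (3.32), and 7 of 12 phagocytic receptor genes were higher with 0 lower. Of 8 CC chemokines 5 were higher and 0 lower (median 2.13), and of 8 CXC chemokines 7 were higher and 0 lower (median 2.33). By library 2, 3 and 4 the CC medians were 0.42, 2.26 and 1.93 and the CXC medians 2.64, 2.41 and 1.72. Pf4, at 3378 against 148 CPM, had a log2 ratio of 4.51, Ccl7, at 1482 against 86.6 CPM, 4.10, and Ccl12, at 367 against 22.0 CPM, 4.06. In members of those libraries Ccl7 was at 0, 2058 and 868 CPM and Ccl12 at 8.30, 577 and 24.6 CPM, so these pooled ratios rest mostly on library 3. Ccl2 was higher in members in libraries 3 and 4, and in library 2 its 49.8 CPM (18.3 to 108) against 88.9 CPM did not differ beyond counting error. Of 22 glycolysis and hypoxia genes 7 were higher and 0 lower (median 0.75). MHC class II genes, unlike in the comparison with barcodes without Arg1, were on the other side of 0, with a median of 0.48 and 1 of 8 higher and 1 lower.

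Against Gpnmb-positive barcodes (115 barcodes, of which 59 in library 2 and 12 in library 3), 550 of 6951 genes were higher in members (7.91%) and 331 lower (4.76%), with a median of 0.18. No library held 20 barcodes of each group, so the side within a library was not required. Without library 2 the higher count was 845 of 6816 genes. Requiring the same side in each library with at least 10 barcodes of both groups, an alternative added after the data were seen, left 234 higher and 147 lower. A ratio stratified by library counted 267 of the 550 higher genes again and 175 of the 331 lower ones. These counts therefore depended on how the libraries were combined. Of 17 lipid-handling genes 13 were lower in members and 0 higher, with a median of -1.15. Here the comparison barcodes were picked by Gpnmb, so genes that rise or fall with it describe that choice and carry no test. Ctsd, a lysosomal protease gene, was at 1561, 2522 and 3005 CPM in members of libraries 2, 3 and 4 and at 7644, 6315 and 13679 CPM in Gpnmb-positive barcodes. Fabp5 was at 1279, 1149.6 and 598 against 4670.1, 3774 and 5074 CPM. Both genes were lower in members in each of these libraries. Mfge8, which bridges dying cells to phagocytes, had a log2 ratio of -6.74. It was at 0, 8.3, 10.4 and 0 CPM in members of libraries 1 to 4 and at 1254, 1154, 0 and 31.1 CPM in Gpnmb-positive barcodes, so the difference lay mostly in libraries 1 and 2. Fabp4, another fatty-acid-binding protein gene, gave -3.02.

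Monocyte genes were higher in members, 8 of 9 and 0 lower (median 3.50), by less within libraries. Their summed level was 573, 2545 and 721 CPM in members of libraries 2, 3 and 4 and 151, 966 and 516 CPM in Gpnmb-positive barcodes. Ccr2 gave 3.50, at 158, 466 and 90.1 CPM in members against 19.7, 88.9 and 46.7 CPM in Gpnmb-positive barcodes of libraries 2, 3 and 4. F13a1 gave 3.53, at 16.6, 581 and 147 against 4.94, 203 and 80.9 CPM. Chil3 gave 2.20 over all libraries but was at 0, 627 and 139 against 3.70, 521 and 236 CPM, and so not higher in each. The transcription factor gene Maf gave 2.06, at 49.8, 496 and 172 against 51.8, 241 and 146 CPM. Interferon-response genes were higher in 7 of 9, with a median of 2.18 that became -0.02 in library 3 alone. The marker chemokines depended on the library here as well. Ccl7 was at 0, 2058 and 868 CPM in members against 72.8, 4612 and 445 CPM, and Ccl2 at 49.8, 3686 and 2399 against 270.3, 5057 and 983 CPM. In libraries 2 and 3 both genes were therefore higher in the Gpnmb-positive barcodes, and in library 4 Ccl2 was higher in members. For Ccl7 in library 4, 1 member held 63 of the 106 UMIs, so no side is read there. In library 1 Ccl7 and Ccl2 were at 1021 and 367 CPM in members, all from 1 barcode, against 115 and 36.0 CPM. The pooled log2 ratios were 1.78 and 1.96. Glycolysis and hypoxia genes differed little, with 2 of 22 higher, 1 lower and a median of 0.14.

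Among members, Arg1 UMIs went with other levels. Members with 1, 2 to 9 and 10 or more Arg1 UMIs had median depths of 4298, 5090.0 and 5716 UMIs, and library 2 gave 8, 5 and 1 of them, library 3 26, 44 and 25, and library 4 4, 3 and 11. Ccl6 was at 2412, 3712 and 5014 CPM in that order, Ccl2 at 1578, 2930.5 and 3429 CPM, and Pgam1 at 306, 472 and 742 CPM. Pf4 had no such order, at 3415, 4376 and 2095 CPM. H2-Aa was at 1596, 687 and 387 CPM, and the fractalkine receptor gene Cx3cr1, a gene of resident macrophages, at 214, 94.4 and 28.5 CPM, both lowest at the highest Arg1. Mmp12 was at 912, 742 and 114 CPM, but 1 member held 213 of the 228 UMIs behind the middle value, so no order is read from it. Since depth and library moved with the Arg1 level, their part was not tested.

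Complement C1q, which resident and mature macrophages make, split the 95 members of library 3 further. This division was made with the values in view and has no test. C1q UMIs were absent in 38 members, at 0.0112 to 0.408% of UMIs in 29 and at 0.415 to 1.96% in 28, with median depths of 4222, 5118 and 5310.0 UMIs. In that order, Pf4 was at 2810.3, 4221 and 7274 CPM, Ccl12 at 245, 453 and 1059 CPM, Ccl24, a chemokine for eosinophils, at 56.5, 101 and 359 CPM, and Mrc1 at 50.2, 209 and 274 CPM. Hmox1 followed at 414, 1335 and 2052 CPM. Pf4, Ccl12, Ccl24 and Hmox1 were highest in members with the most C1q, while for Mrc1 the intervals of the lower (145 to 290.2) and upper group (198 to 371) overlapped. Ccl7, at 2497, 1681 and 2013 CPM, and Ccl2, at 4165, 3196 and 3725 CPM, had no such order. In the opposite direction, Il1b was at 1311, 1061 and 379 CPM, the matrix glycoprotein gene Thbs1 at 979, 501 and 333 CPM, Ccr2 at 621, 429 and 346 CPM, and Chil3 at 878, 537 and 464 CPM. The intervals of the lower and upper group overlapped for Ccr2 (336 to 541 and 259 to 453) and Chil3 (431 to 659.5 and 362 to 585). Those with no C1q and with the lower share overlapped for Il1b (1139 to 1501 and 911 to 1229) and Ccr2 (505 to 756 and 336 to 541). Arg1 itself had no order, at 1744, 918 and 1621 CPM, and neither had Trem2, a lipid-sensing receptor gene, at 295, 268 and 288 CPM.

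**Figure D3:**
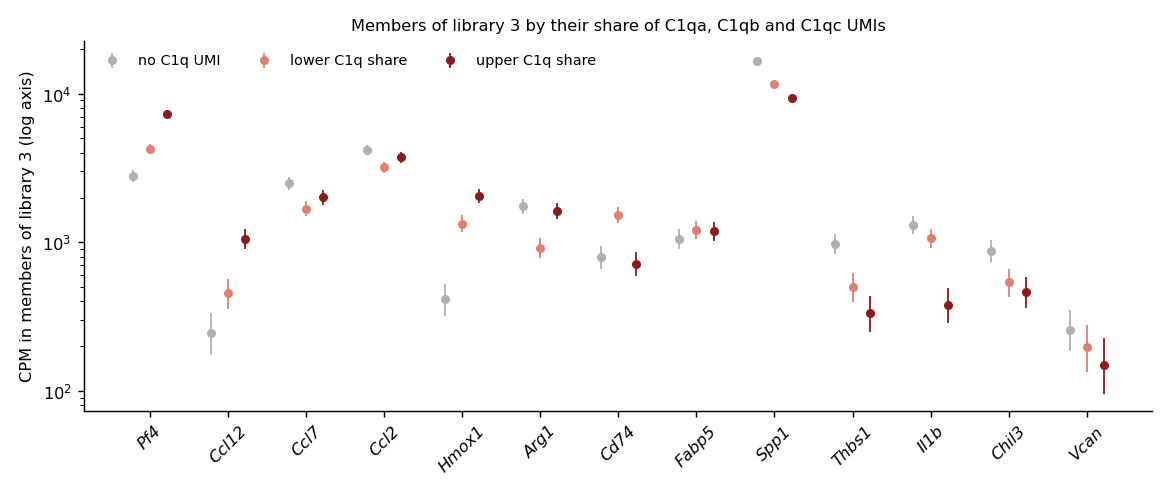
Levels in CPM, on a log axis with exact 95% Poisson intervals, of chosen genes in library 3 members with no C1q, a lower C1q share and an upper C1q share (38, 29 and 28 barcodes). Pf4 and Ccl12 were highest in the upper group (7274 and 1059 CPM), and Il1b and Thbs1 highest with no C1q (1311 and 979 CPM).

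Other cell types left small amounts in members. Proximal tubule markers were at 1822 CPM, against 3549.9 CPM in barcodes without Arg1. Per barcode the order was the other way, with 3 or more such UMIs in 97.7% of members (median 8) and in 77.3% of barcodes without Arg1 (median 6), which were shallower. Distal tubule markers summed to 139 UMIs, 110 of them in 1 member. Over all members, T and NK cell markers summed to 5 UMIs, endothelial and fibroblast markers to 1 each, red cell markers to 7 (red cells had been lysed during preparation) and neutrophil markers to 19, with at most 2 in any member. Mcpt8 and Cpa3, of basophils and mast cells, were at 0.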

How the data were processed

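Single-cell suspensions of kidney were profiled by droplet capture of transcript 3′ ends, and the authors deposited raw UMI counts per gene and barcode as 1 matrix of 5 libraries. The submitters' processing notes name Cell Ranger 6.0 and the mm10 build. No value was normalized before deposit. From these counts, CPM was computed from UMIs summed over barcodes of a group, with exact Poisson intervals, shares with exact Clopper-Pearson intervals and ratios with exact conditional intervals, all at 95% and for counting error only (Python 3.11.15, numpy 2.4.6, scipy 1.17.1, matplotlib 3.10.9). Libraries held 10020 to 33839 kept barcodes, with median depths of 1242 to 4294.5 UMIs, the lowest in library 3. A gene was counted at 2-fold as defined with the first comparison. The members, lists and comparison groups were chosen with earlier results of these data known. Named genes were those of the lists, the 12 highest and 8 lowest counted genes per comparison with mean CPM at least 100, and the 12 leading genes. Clec7a and Mx1 were not in the matrix used. No test was run, since each condition has 1 sample and library numbers carry no condition. On simulated counts for the comparison with barcodes without Arg1, 98.0% and 88.0% of genes set to 0.25 and 0.4 of their level and 100.0% of those raised 3-fold or 4-fold were recovered, and 0.854% of 7262 unchanged genes were counted. In those simulated for Ly6c2-positive and Gpnmb-positive barcodes, 2.78% of 6770 and 3.29% of 6479 unchanged genes were counted, in either direction. The simulated counts held counting error only, with no variation between barcodes or libraries. They therefore do not give the error rate of the real counts. No cluster, doublet caller or free-RNA correction was used.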

Additional observations from a re-analysis of the deposited data

How the results depend on the processing

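The number of members was 124 with at most 10% mitochondrial UMIs, 90 with at least 2 Arg1 UMIs and 100 with no Lrp2 UMI, and ran from 34 to 129 with 1 library left out, 34 without library 3. Leaving out each library in turn gave 172 to 505 higher and 483 to 884 lower genes against barcodes without Arg1, 641 to 1030 and 700 to 1325 against Ly6c2-positive barcodes, and 550 to 845 higher genes against Gpnmb-positive barcodes, with the highest counts without library 3 in the first comparisons and without library 2 in the last. With a mean CPM of at least 50 the higher and lower counts were 70 and 110 of 2456 genes against barcodes without Arg1. They were 154 and 203 of 2495 against Ly6c2-positive barcodes, and 100 and 88 of 2332 against Gpnmb-positive barcodes. With no filter on low values they were 499 and 1523 of 13556, 1187 and 1262 of 9704, and 1241 and 981 of 10285. The number of genes tested moved with the limit, so these counts are to be read beside it. Barcodes thinned to 1000 UMIs gave 982 and 909 of 7081 against barcodes without Arg1 and 921 and 607 of 4603 against Gpnmb-positive barcodes. The mean of CPM per barcode gave 355 of 7198 higher against the former and 560 of 6939 lower against the latter. Chosen after seeing the data, a minimum of 10 barcodes per library in both groups gave 133 higher genes against barcodes without Arg1, and 234 higher and 147 lower against Gpnmb-positive barcodes, for which library 3 alone gave 911 lower. Of 740 list medians recomputed, 686 stayed within the interval of the reported median. That interval was taken from the ranked gene ratios of a list. It is wide for short lists, so staying inside it shows little for them. The sign changed in 62 of the 740 medians, 16 of them in library 3 alone (also chosen after seeing the data). Only 4 of the 62 had a reported median of 1 or more from 0, all in library 3 alone: interferon-response genes at 0.02, 0.20 and -0.02 against barcodes without Arg1, Ly6c2-positive and Gpnmb-positive barcodes, and the marker genes Pf4, Ccl7 and Ccl2 at -0.46 against Gpnmb-positive barcodes. These alternatives held no comparison within library 2 alone, where the same marker genes had a median of -2.60 against barcodes without Arg1 (2.56 over all libraries), with Ccl7 at 0 UMIs set to 3 counts. The cause was not tested. No paired analysis was possible because each condition has 1 sample and no library number is tied to one. Within libraries, a ratio stratified by library number counted again 123 of 209 higher and 378 of 512 lower genes against barcodes without Arg1, and 632 of 653 and 714 of 734 against Ly6c2-positive barcodes. With 129 members, 95 of them in library 3, the levels of libraries 1, 2 and 4 rest on few barcodes.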

Other observations

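C-type lectin receptors, which sense microbial and dead-cell ligands, differed by gene. Clec4e, the Mincle gene, was at 224 CPM in members, 116 in barcodes without Arg1, 421 in Ly6c2-positive and 107 in Gpnmb-positive barcodes. In libraries 2, 3 and 4 its level in members was 241, 199.9 and 246 CPM, and in barcodes without Arg1 84.6, 231 and 163 CPM, so it was higher in members in library 2. In library 3 the interval of the members (162 to 244 CPM) covered the value of barcodes without Arg1, and in library 4 it reached almost as low (166 to 351 CPM, from 30 UMIs). Clec4d, which pairs with Mincle, was at 282, 310.3 and 221 CPM in members and 86.7, 164 and 78.7 CPM in barcodes without Arg1. Clec4n, the Dectin-2 gene, was at 432, 262 and 573 against 161, 163 and 273 CPM, and both genes were higher in members within each of these libraries. Of 13 lectin receptor and signalling genes tested against barcodes without Arg1, 2 were counted higher and 1 lower, with a median of 0.13, and within library 3 alone 0 were higher and 2 lower, with a median of -0.21, against medians of 0.47 and 0.58 in libraries 2 and 4.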
